A study of Homo sapiens with 8 samples.

Results

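The response of SW480 cells to caffeine was measured over all expressed genes, by setting 2 RNA-seq libraries from caffeine-treated SW480 cells against 2 from untreated SW480 cells. These 4 libraries were chosen by cell line and treatment from the 8 of the study. The other 4 come from SW620 cells, 2 labelled caffeine-treated and 2 labelled control. SW480 is a human colorectal adenocarcinoma line from a primary tumour, and SW620 is a line from a lymph node metastasis of the same patient. Both lines carried B8-mCherry, a fluorescent fusion of an immunoproteasome subunit, so control and caffeine cells shared it. The caffeine dose and exposure time of the sequenced SW480 cells are not stated in the labels, which describe SW620 cultures at 30, 60, 100, 250 and 500 µM for 72 h and at 125 µM for 28 days. Replicates are described as biological, with no culture day given, so p-values measure the spread between libraries of both lines, which may be partly technical.

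Caffeine blocks adenosine receptors and, at higher concentrations, inhibits cyclic nucleotide phosphodiesterases, opens ryanodine receptors and inhibits kinases of the PI3K-related family, among them ATM, ATR and mTOR. ATF4 is a transcription factor whose mRNA is translated when amino acids run short or other stresses lead to eIF2α phosphorylation. It switches on amino acid synthesis, amino acid uptake, tRNA charging and a set of stress effectors, partly through composite sites that it occupies with a C/EBP partner.

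The SW480 control libraries held 16433958 and 17534930 reads assigned to genes and the caffeine libraries 15760259 and 23269315, so that 3 counts, the limit that a count of 0 allows, correspond to 0.129 to 0.190 CPM. Levels are CPM, read counts scaled to library size with TMM factors, which compare libraries but not genes of different length. The 4 libraries separated by treatment on their first principal component (49.6% of the variance). Mitochondrial genes took 6.16% and 4.92% of assigned reads in the control libraries and 4.86% in caffeine replicate 1, against 1.63% in caffeine replicate 2. Of 8 colonic epithelial markers, 2 stayed under 1 CPM in each of the 4 SW480 libraries, and none of the 8 was called. EPCAM lay between 157 and 184 CPM and CDX2, the intestinal homeobox factor, between 106 and 142 CPM. CDH1, which encodes E-cadherin, was 1 of the 2 under 1 CPM. It measured 0.908, 0.700, 0.129 and 0.383 CPM in control replicates 1 and 2 and caffeine replicates 1 and 2. Of markers of other cell types, 3 of 7 for fibroblasts, 3 of 7 for leukocytes and 2 of 5 for endothelium were high enough to test, and none was called. The summed level of the 7 fibroblast markers was 6.17 and 6.13 CPM in the controls and 5.6 and 7.58 CPM with caffeine. The 7 leukocyte markers summed to 2.66 and 4.20 CPM and to 2.25 and 2.55 CPM, and the 5 endothelial markers to 1.69 and 2.22 CPM and to 1.35 and 1.83 CPM. COL3A1 and DCN (fibroblast) and CDH5 (endothelial) had no count in these libraries. In RNA from bulk cultures, fewer cells of a kind and less RNA per cell cannot be told apart.

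Caffeine moved SW480 transcripts in both directions by mostly modest amounts. Amino acid stress effectors of the ATF4 programme, 4 cytosolic tRNA synthetases, 5 histone genes and the vesicle regulator CPLX2 were among those that rose. The death ligand TNFSF10, the lipid carrier APOE, interferon-stimulated genes, claudins and the A2B adenosine receptor were among those that fell. Of 17671 genes tested with edgeR's quasi-likelihood test, 636 (3.6%) passed an adjusted p of 0.05 and are referred to as called. Of the tested genes 295 (1.67%) were called higher and 341 (1.93%) lower with caffeine. Of the genes named above, CPLX2, TNFSF10, APOE, 5 ATF4 effectors and 2 of the histone genes stayed called whichever library was left out. The synthetases, interferon-stimulated genes, claudins and A2B receptor did not. Gene lists were not tested, and their counts of called members are to be read beside the 3.6%. With so small a share, a short list with no call does not show that its genes were unaffected. The median log2 fold change was 0.78 among those that rose and -0.80 among those that fell, and 101 and 108 genes changed by more than 1 on the log2 scale. The caffeine and control libraries did not overlap for any of the 636, but neither did they for 43% of all tested genes. At an unadjusted p under 0.05 stood 3428 genes.

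**Figure D1:**
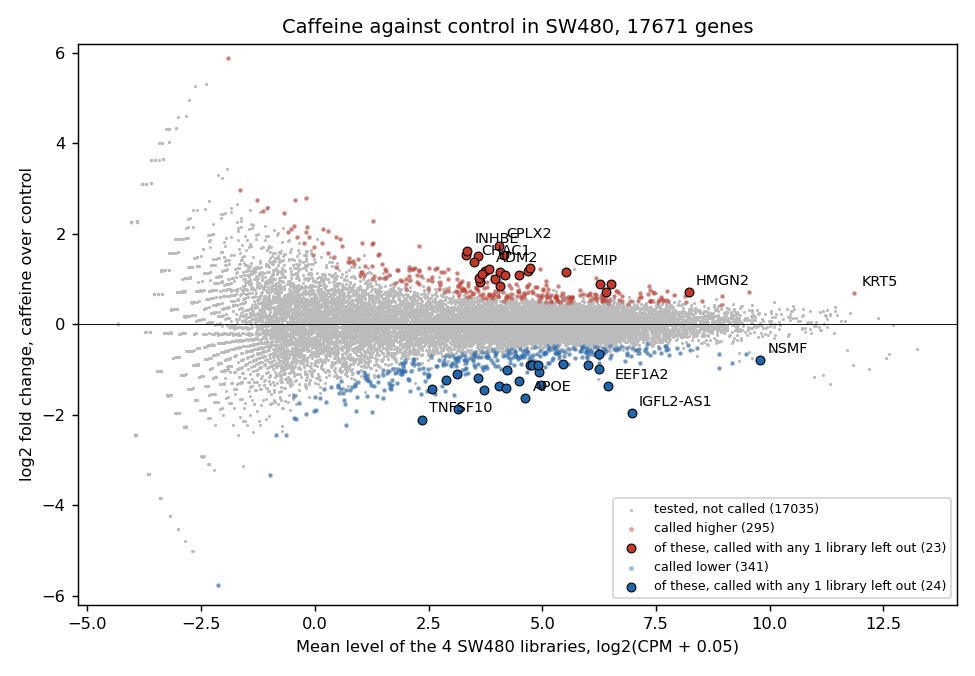
Log2 fold change of caffeine over control in SW480 against the mean level of the 4 SW480 libraries, as log2 of CPM plus 0.05, for the 17671 tested genes (grey, not called). Red points are the 295 genes called higher and blue points the 341 called lower, spread over the whole range of levels, and outlined points are the 47 that kept the call with any 1 library left out.

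Caffeine replicate 2 lay farther from the controls than caffeine replicate 1 for 455 of the 636 genes. Control replicate 1 was the control farther from the caffeine libraries in 219 of the 295 higher and 239 of the 341 lower genes. These shares were not counted over all tested genes. Among the genes that rose, the median difference from the control mean was 0.67 in replicate 1 and 0.89 in replicate 2 on the log2 CPM scale. Among those that fell it was -0.75 and -0.87. Without caffeine replicate 2, the library with 1.63% mitochondrial reads, 50 genes were called, 25 in each direction, and without control replicate 1 there were 180. The median size of change of the 636 was 0.72 without caffeine replicate 2, against 0.79 with all libraries. The part of the mitochondrial share in these differences was not tested. With mitochondrial genes removed from the counts and library sizes 644 genes were called, 629 of them the same.

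**Figure D2:**
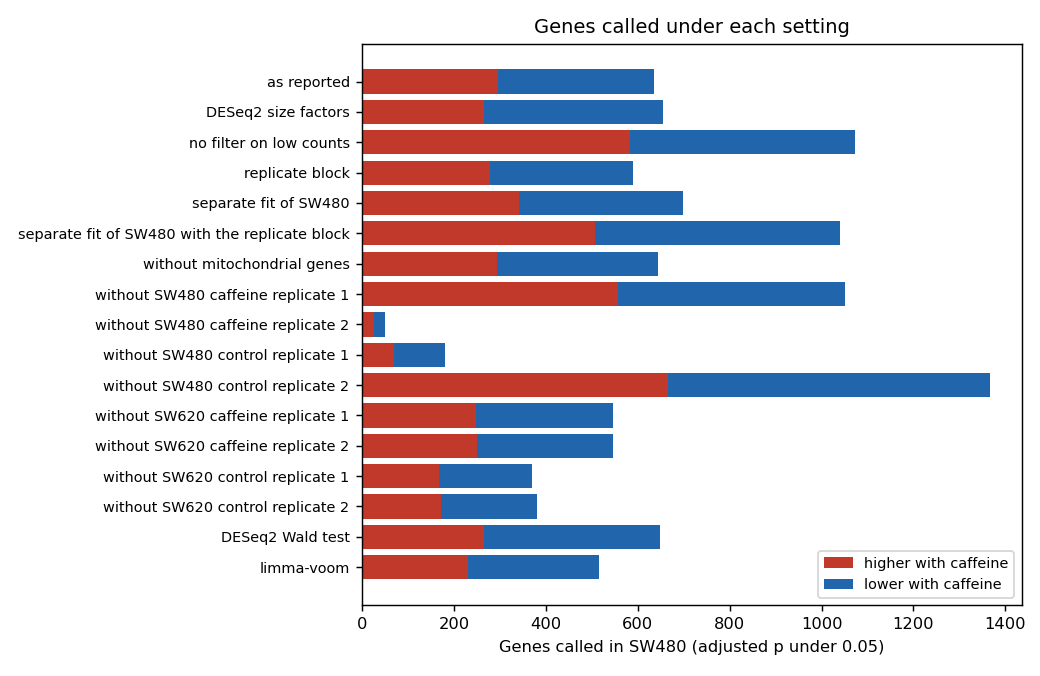
Number of SW480 genes called higher (red) and lower (blue) at an adjusted p of 0.05, as reported and under each of the 16 alternative settings. The bars run from 50 genes without SW480 caffeine replicate 2 to 1367 without SW480 control replicate 2, with 636 as reported.

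A stricter set of 47 genes (0.266% of those tested), 23 higher and 24 lower, stayed called with the same sign whichever of the 8 libraries was left out. These 47 were also called by DESeq2's Wald test, by limma-voom, with a replicate block and in a separate fit of the 4 SW480 libraries. The same counts entered each of these fits, so this is a description. The distance of caffeine replicate 2 from the controls exceeded that of replicate 1 in 11 of the 23 higher and 11 of the 24 lower genes. Since these genes were chosen for staying called without caffeine replicate 2, that split follows in part from the choice. Genes said to be kept belong to this set.

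**Figure D3:**
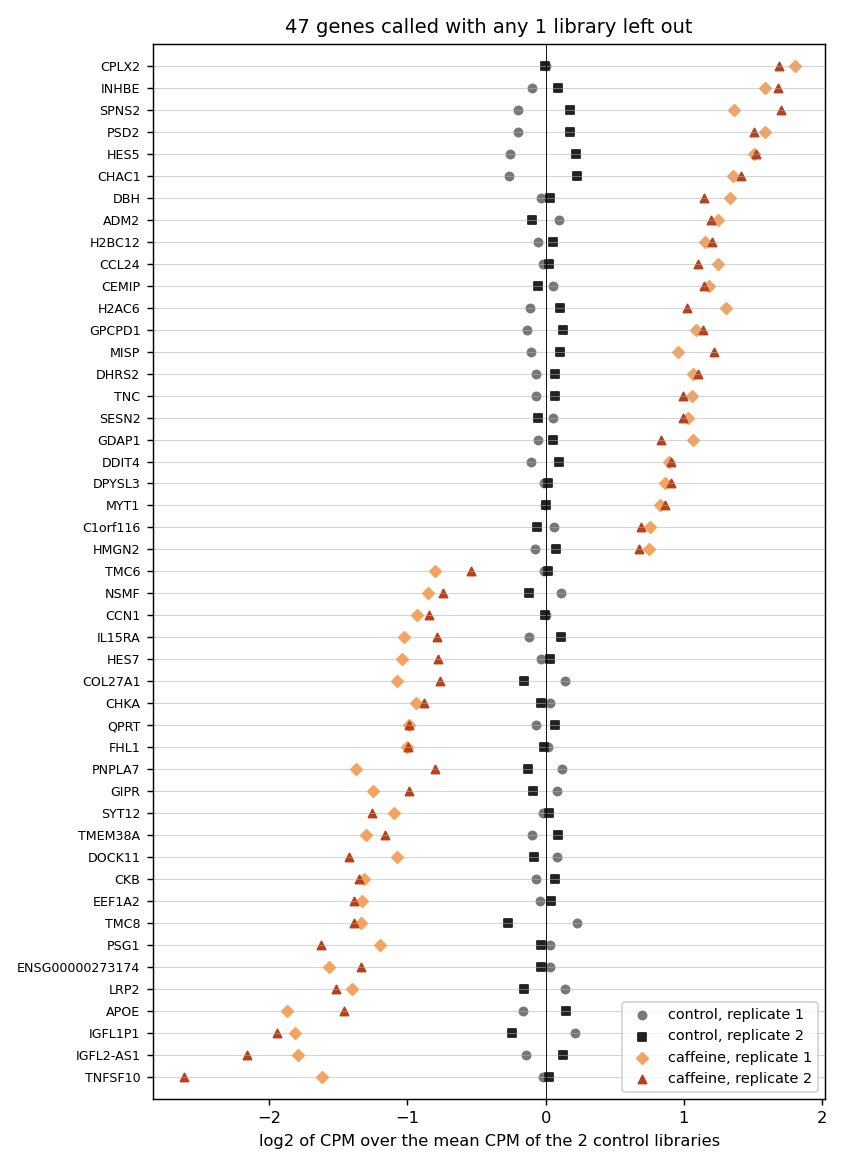
Level of each of the 47 kept genes in the 4 SW480 libraries, drawn as log2 CPM minus the mean of the 2 control libraries. Each row is a gene and each point a library. Both caffeine points of every gene lie on the same side of both control points, as they do for all 636 called genes.

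The gene with the largest rise in the kept set was CPLX2 (chr5:175796310-175884020, plus strand, GRCh38), which encodes complexin 2, a brake and trigger of vesicle fusion. It measured 7.56 and 7.53 CPM in the control libraries and 26.3 and 24.3 CPM in the caffeine libraries. The caffeine libraries stood well above both controls, with a log2 fold change of 1.74 ± 0.16 (SE) and an adjusted p of 2.41e-05. SYP, CPLX1 and BSN, which encode a synaptic vesicle protein, a second complexin and an active zone scaffold, rose too, by log2 values of 0.90, 1.22 and 1.10. The scaffold SHANK1 (-1.94), the glutamate receptor subunit GRIN2B (-2.07) and the adhesion molecule NLGN3 (-1.25) fell. In all, 4 of 33 tested genes of the list of synaptic and vesicle release genes rose and 3 fell, with a median log2 fold change of -0.15 against 0.00 over all tested genes. The list had a median of 0.0037 without caffeine replicate 1 and -0.071 without control replicate 1. It has 42 members, and BSN, GRIN2B and NLGN3 were named after their values were seen. SHANK1 measured 3.81 and 3.56 CPM in the control libraries and 1.22 and 0.766 CPM in the caffeine libraries. GRIN2B rested on low levels, 1.45 and 0.759 CPM in the control libraries and 0.257 and 0.255 CPM in the caffeine libraries. Dropping caffeine replicate 1 ended the call of GRIN2B and NLGN3 (adjusted p from 0.0639 to 0.117). The call of SYP, CPLX1, BSN, SHANK1, GRIN2B and NLGN3 ended without caffeine replicate 2 (adjusted p from 0.0831 to 0.302). With control replicate 1 left out, SYP, CPLX1, GRIN2B and NLGN3 missed the threshold (adjusted p from 0.0879 to 0.237). BSN depended on control replicate 2 for the call (adjusted p = 0.131 without it). Once SW620 caffeine replicate 1 or 2 was left out, NLGN3 fell short of the threshold (adjusted p from 0.0555 to 0.0561). BSN and NLGN3 lost the call without SW620 control replicate 1 or 2 (adjusted p from 0.0516 to 0.0622). GRIN2B and NLGN3 were not called by limma-voom (adjusted p from 0.0872 to 0.0904). BSN was not called by DESeq2's Wald test (adjusted p = 0.0581).

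The ATF4 stress effectors, genes that carry out or tune the response to amino acid shortage, were all high enough to test. Of the 21, 9 rose and 1 fell, and 18 had a positive log2 fold change, with a median of 0.53. The medians were 0.45 in caffeine replicate 1 and 0.60 in replicate 2. CHAC1 (chr15:40952962-40956519, plus strand), which breaks down glutathione, measured 5.2 and 7.3 CPM in the control libraries and 16 and 16.6 CPM in the caffeine libraries. Both caffeine libraries lay above the higher control, and the log2 fold change was 1.38 ± 0.17 (adjusted p = 0.000416). INHBE (chr12:57452323-57459280, plus strand), a subunit of the hormone activin E, measured 4.6 and 5.25 CPM in the control libraries and 14.8 and 15.8 CPM in the caffeine libraries, with a log2 fold change of 1.63 ± 0.17 (adjusted p = 9.56e-05). ADM2, a secreted peptide of the calcitonin family, measured 9.08 and 7.94 CPM in the control libraries and 20.2 and 19.5 CPM in the caffeine libraries (log2 fold change 1.22 ± 0.15, adjusted p = 0.000323). In INHBE and ADM2 the libraries of a group lay close together, while the CHAC1 controls, at 5.2 and 7.3 CPM, lay farther apart.

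Regulators of mTORC1 formed the other part of the kept ATF4 genes. DDIT4, also called REDD1, an inhibitor of mTORC1, measured 50.2 and 57.7 CPM in the control libraries and 100.1 and 101 CPM in the caffeine libraries. Its log2 fold change was 0.90 ± 0.12 (adjusted p = 0.000893), and both caffeine libraries were above both controls. SESN2, which restrains mTORC1 when leucine is scarce, measured 10.7 and 9.86 CPM in the control libraries and 21 and 20.4 CPM in the caffeine libraries (1.01 ± 0.14, adjusted p = 0.00121). The pseudokinase TRIB3, a feedback inhibitor of ATF4, rose by a log2 value of 0.61, the transcription factor ATF5 by 0.53 and the lipoprotein receptor VLDLR by 0.71. The hormone gene FGF21 rose by 2.03 from low levels, 0.303 and 0.175 CPM without and 0.901 and 1.06 CPM with caffeine. KLHL24 was the 1 member that fell (-0.82). ATF4 itself, largely controlled at translation, measured 449 and 538 CPM in the control libraries and 652 and 689 CPM in the caffeine libraries and was not called (0.44 ± 0.13, adjusted p = 0.0659). DDIT3, the pro-apoptotic factor CHOP, measured 47 and 57.8 CPM in the control libraries and 53.9 and 43.6 CPM in the caffeine libraries, with overlapping groups (-0.11 ± 0.15, adjusted p = 0.746). SESN2, TRIB3, ATF5, VLDLR, FGF21, KLHL24, ATF4 and DDIT3 lay outside the naming rule and were named after their values were seen. Dropping caffeine replicate 2 or control replicate 1 ended the call of TRIB3, ATF5, VLDLR, FGF21 and KLHL24 (adjusted p from 0.0998 to 0.319). The call of FGF21 ended without control replicate 2 (adjusted p = 0.0976). With SW620 control replicate 1 or 2 left out, ATF5, VLDLR and FGF21 missed the threshold (adjusted p from 0.0514 to 0.0677). VLDLR was not called by limma-voom (adjusted p = 0.0647). FGF21 was not called by DESeq2's Wald test (adjusted p = 0.0658). ATF5 and VLDLR were not called in the separate SW480 fit (adjusted p from 0.0548 to 0.0599). The median of the list was 0.45 without caffeine replicate 2 and 0.44 without control replicate 1.

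Sites for ATF4 with its C/EBP partner were searched as TGATGNAA on both strands, in RefSeq promoters of build GRCh38.p14 that run from 250 bases before to 50 bases after a gene's start. Such promoters were matched for 12061 of the 17671 tested genes. The 250 bases before the CHAC1 start, chr15:40953221-40953470 on the plus strand, are shown because CHAC1 was kept and holds a match, which stands in capitals and reads as the reverse complement here. RefSeq places this start inside the GENCODE 29 span of CHAC1 given above, so the printed bases lie within that span.
CHAC1: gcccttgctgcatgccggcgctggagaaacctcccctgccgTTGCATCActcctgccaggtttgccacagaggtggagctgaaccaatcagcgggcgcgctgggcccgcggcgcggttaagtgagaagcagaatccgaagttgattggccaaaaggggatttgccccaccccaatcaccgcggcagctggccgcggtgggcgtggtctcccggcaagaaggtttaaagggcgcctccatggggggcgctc
The match lies 202 to 209 bases before the start. Windows of 16 bases on each side of the match, given on the strand that reads TGATGNAA, compare the sites of a called effector, a called tRNA synthetase and asparagine synthetase, the gene best known for this element. They are CHAC1 (chr15:40953246-40953285, minus strand), FGF21 (chr19:48755454-48755493, minus strand), AARS1 (chr16:70289670-70289709, plus strand) and ASNS (chr7:97872453-97872492, minus strand), with the match in capitals.
CHAC1: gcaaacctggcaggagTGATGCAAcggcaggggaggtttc
FGF21: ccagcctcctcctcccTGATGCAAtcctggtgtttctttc
AARS1: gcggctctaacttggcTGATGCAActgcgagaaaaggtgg
ASNS: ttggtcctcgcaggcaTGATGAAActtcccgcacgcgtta
The first 3 share the letters TGATGCAA and ASNS has TGATGAAA. Of all promoters 1.78% (215) held the motif, against 3 of 18 ATF4 stress effectors with a promoter (16.7%, ATF3, CHAC1 and FGF21) and 6 of 16 cytosolic tRNA synthetases (37.5%, AARS1, CARS1, IARS1, MARS1, NARS1 and TARS1). It stood in 8 of 227 promoters of genes called higher (3.52%) and in 2 of 231 of genes called lower (0.866%). A match describes letters in a window and is not a measure of binding. No promoter entry was matched for INHBE.

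Cytosolic tRNA synthetases, which charge tRNAs with amino acids for translation, all had positive log2 fold changes, 20 of 20, with a median of 0.30. Both caffeine libraries gave nearly the same median, 0.29 and 0.30. By the test over all genes 4 of the 20 rose. GARS1, the glycine enzyme, measured 401 and 428 CPM in the control libraries and 565 and 559 CPM in the caffeine libraries (0.44 ± 0.11, adjusted p = 0.0421). MARS1, for methionine, measured 277 and 325 CPM in the control libraries and 389.8 and 470.3 CPM in the caffeine libraries (0.52 ± 0.13, adjusted p = 0.0356). AARS1, for alanine, rose by a log2 value of 0.49 and CARS1, for cysteine, by 0.44. For these 4 the groups did not overlap, which held for every called gene, and the rises were small. The 17 mitochondrial synthetases had a median of 0.16 and none was called, with the smallest p for AARS2 (0.49 ± 0.14, adjusted p = 0.0622). GARS1 and CARS1 depended on caffeine replicate 1 or SW620 caffeine replicate 1 or 2 for the call (adjusted p from 0.0505 to 0.067 without it). Once caffeine replicate 2 or control replicate 1 or SW620 control replicate 1 or 2 was left out, GARS1, MARS1, AARS1 and CARS1 fell short of the threshold (adjusted p from 0.0751 to 0.344). CARS1 was not called with DESeq2 size factors (adjusted p = 0.0533). GARS1, MARS1, AARS1 and CARS1 were not called in the separate SW480 fit (adjusted p from 0.0742 to 0.177).

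Genes of amino acid and one-carbon synthesis had a median of 0.37, with 15 of 16 positive, and 3 rose and 1 fell. GPT2, mitochondrial alanine aminotransferase, measured 66.7 and 66.9 CPM in the control libraries and 97 and 109.9 CPM in the caffeine libraries (0.63 ± 0.12, adjusted p = 0.00974). MTHFD2, of mitochondrial folate metabolism, rose by a log2 value of 0.55 and PSAT1, of serine synthesis, by 0.52. ASNS measured 5.45 and 4.2 CPM in the control libraries and 6.56 and 8.56 CPM in the caffeine libraries and was not called (0.66 ± 0.22, adjusted p = 0.11), and it shares 1985 exon bases with another gene on its strand. Amino acid transporters had a median of 0.00 with 15 of 16 members tested. Of these SLC7A11, the cystine importer, rose, with 6.96 and 7.7 CPM in the control libraries and 12.7 and 13.8 CPM in the caffeine libraries (0.86 ± 0.17, adjusted p = 0.0141), and SLC36A1, a lysosomal amino acid exporter, fell (-0.61 ± 0.15, adjusted p = 0.0328). SLC7A11 is also the 1 called gene of 14 NRF2 targets, the oxidative stress set. PSAT1 and SLC36A1 lost the call without caffeine replicate 1 or SW620 control replicate 1 or 2 (adjusted p from 0.0505 to 0.0671). Dropping caffeine replicate 2 ended the call of GPT2, MTHFD2, PSAT1, SLC7A11 and SLC36A1 (adjusted p from 0.117 to 0.203). The call of MTHFD2, PSAT1, SLC7A11 and SLC36A1 ended without control replicate 1 (adjusted p from 0.0732 to 0.153). PSAT1 was not called in the separate SW480 fit (adjusted p = 0.0599).

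The list of mTORC1 and nutrient sensing genes, which couple amino acid supply to growth, had a median of -0.01, and 2 of its 23 tested genes fell, the Rag GTPase RRAGD (-0.72 ± 0.12, adjusted p = 0.00629) and the sestrin SESN3 (-0.67 ± 0.15, adjusted p = 0.0223). SESN3 measured 125 and 97.6 CPM in the control libraries and 75.9 and 64.7 CPM in the caffeine libraries, the opposite direction to its relative SESN2. Of 33 autophagy and lysosome genes 2 fell, among them the lysosomal membrane protein LAMP2 (-0.53). In the unfolded protein response list 1 of 21 genes was called, TXNDC5, a protein disulphide isomerase, which shares 2658 exon bases with another gene on its strand and measured 1.75 and 2.8 CPM in the control libraries and 4.89 and 10.0 CPM in the caffeine libraries. With caffeine replicate 2 left out, RRAGD, SESN3, LAMP2 and TXNDC5 missed the threshold (adjusted p from 0.0845 to 0.377). SESN3, LAMP2 and TXNDC5 depended on control replicate 1 for the call (adjusted p from 0.0535 to 0.202 without it). Once any 1 of the 4 SW620 libraries was left out, LAMP2 fell short of the threshold (adjusted p from 0.0544 to 0.0741). LAMP2 was not called in the separate SW480 fit (adjusted p = 0.0606).

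Replication-dependent histone genes supply the proteins that package newly copied DNA, and most of their mRNAs end in a stem-loop and not a poly-A tail. In these poly-A libraries 25 of 38 were high enough to test. Of the 25, 5 rose, none fell and 20 had a positive log2 fold change, with a median of 0.52 (0.57 in caffeine replicate 1 and 0.45 in replicate 2). H2BC12 (chr6:27146418-27146798, minus strand), an H2B gene, measured 15.1 and 16.2 CPM in the control libraries and 34.8 and 36.1 CPM in the caffeine libraries, with a log2 fold change of 1.18 ± 0.14 (adjusted p = 0.000244). H2AC6, an H2A gene, measured 9.5 and 11 CPM in the control libraries and 25.3 and 20.9 CPM in the caffeine libraries (1.16 ± 0.15, adjusted p = 0.000694). Both genes were kept, and their caffeine libraries lay well above their controls. The linker histone H1-2 measured 37.7 and 57.6 CPM in the control libraries and 109 and 84.7 CPM in the caffeine libraries (1.02), H2BC11 4.66 and 6.71 CPM in the control libraries and 13.3 and 9.96 CPM in the caffeine libraries (1.01), and H4C8, named after its values were seen, rose by 1.16. Histone genes are near-identical copies, and reads of low mapping quality were left unassigned (13.3% to 14.7% in the SW480 libraries). Levels of these genes may therefore miss reads. The median of the list was 0.30 without control replicate 1 and 0.96 without control replicate 2. H1-2 and H4C8 lost the call without caffeine replicate 2 (adjusted p from 0.0521 to 0.259). Dropping control replicate 1 ended the call of H1-2, H2BC11 and H4C8 (adjusted p from 0.0576 to 0.101). The call of H4C8 ended without control replicate 2 or SW620 control replicate 1 or 2 (adjusted p from 0.0515 to 0.105). H4C8 was not called by limma-voom or by DESeq2's Wald test (adjusted p from 0.0549 to 0.0673). HMGN2, a nucleosome-binding protein outside this list, was kept at 215 and 238 CPM in the control libraries and 379.6 and 362 CPM in the caffeine libraries (0.71 ± 0.11, adjusted p = 0.00305).

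DNA replication and nucleotide synthesis genes had a median of 0.24, with 32 of 35 positive, and 4 rose. The list had a median of 0.15 without caffeine replicate 2. TYMS, which makes thymidylate, measured 44.3 and 54.7 CPM in the control libraries and 73.4 and 81.5 CPM in the caffeine libraries (0.65 ± 0.13). RRM2, a ribonucleotide reductase subunit, measured 218 and 259 CPM in the control libraries and 322 and 353 CPM in the caffeine libraries (0.50 ± 0.12). The fork protein GINS2 rose by a log2 value of 0.66 and the ligase LIG1 by 0.51. Of 25 ATM and ATR checkpoint and repair genes, whose kinases are known caffeine targets, H2AX (0.66 ± 0.14) and the fork protection factor TIPIN (0.63 ± 0.16) rose, and the list's median was 0.19. TIPIN shares 579 exon bases with another gene on its strand. None of 30 mitotic genes was called (median 0.16), nor any of 16 p53 targets (median 0.01), against 3.6% of all tested genes. CDC20, an activator of the anaphase-promoting complex, measured 171 and 215 CPM in the control libraries and 248 and 275 CPM in the caffeine libraries (0.44 ± 0.13, adjusted p = 0.0648). With caffeine replicate 1 left out, GINS2 and TIPIN missed the threshold (adjusted p from 0.055 to 0.0964). TYMS, RRM2, GINS2, LIG1, H2AX and TIPIN depended on caffeine replicate 2 or control replicate 1 for the call (adjusted p from 0.11 to 0.448 without it). Once SW620 caffeine replicate 1 or 2 was left out, LIG1 and TIPIN fell short of the threshold (adjusted p from 0.0533 to 0.0615). RRM2, LIG1 and TIPIN lost the call without SW620 control replicate 1 or 2 (adjusted p from 0.0676 to 0.0878). LIG1 was not called by limma-voom or with DESeq2 size factors (adjusted p from 0.0565 to 0.0578). RRM2 and LIG1 were not called in the separate SW480 fit (adjusted p from 0.0675 to 0.0817).

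TNFSF10 (chr3:172505508-172523507, minus strand), which encodes the death ligand TRAIL, had the largest fall of the kept genes. It measured 7.99 and 8.23 CPM in the control libraries and 2.64 and 1.32 CPM in the caffeine libraries, a log2 fold change of -2.10 ± 0.24 (adjusted p = 0.000198). Both caffeine libraries were under all control values, and caffeine replicate 2 was the lower of them. TNFRSF10D, a decoy receptor of TRAIL that lacks a working death domain, also fell, from 67.8 and 54 CPM without caffeine to 34.4 and 31.9 CPM with it (-0.88 ± 0.14, adjusted p = 0.00323). The other 13 of the 15 tested genes of the pathway were not called, and the list's median was -0.17. Of 18 BCL2 family and caspase genes, the pro-apoptotic BMF fell (-0.99 ± 0.20, adjusted p = 0.0122). Dropping caffeine replicate 2 ended the call of TNFRSF10D and BMF (adjusted p from 0.0811 to 0.106). The call of BMF ended without control replicate 1 (adjusted p = 0.0794).

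Interferon-stimulated genes, the antiviral programme switched on by type I interferon, had a median of -0.16, and 5 of 33 tested genes (of 41) fell and 1 rose. The list had a median of -0.08 without control replicate 2. The oligoadenylate synthetases OAS2 and OAS1, sensors of double-stranded RNA, fell by log2 values of -0.86 and -0.80. OAS2 measured 28.6 and 21.9 CPM in the control libraries and 15.2 and 12.8 CPM in the caffeine libraries. OAS1 measured 13.6 and 14.4 CPM in the control libraries and 9.53 and 6.73 CPM in the caffeine libraries. IFIT2 (-1.90), IFITM1 (-1.81) and IFIT3 (-0.94), antiviral effectors, also fell, and the exonuclease ISG20 rose (0.79). IFITM1 measured 13.8 and 13 CPM in the control libraries and 6.56 and 1.58 CPM in the caffeine libraries, with caffeine replicate 2 the lowest of the 4. IFIT3 and ISG20 were named after their values were seen, and IFIT2 and IFITM1 share 356 and 351 exon bases with other genes on their strands. With caffeine replicate 1 left out, IFIT3 and ISG20 missed the threshold (adjusted p from 0.0645 to 0.0821). OAS2, OAS1, IFIT2, IFITM1, IFIT3 and ISG20 depended on caffeine replicate 2 for the call (adjusted p from 0.0945 to 0.348 without it). Once control replicate 1 was left out, OAS2, IFITM1, IFIT3 and ISG20 fell short of the threshold (adjusted p from 0.119 to 0.326). IFITM1 and ISG20 lost the call without control replicate 2 or SW620 caffeine replicate 1 or 2 (adjusted p from 0.0514 to 0.14). Dropping SW620 control replicate 1 or 2 ended the call of IFITM1, IFIT3 and ISG20 (adjusted p from 0.0621 to 0.132). IFIT3 and ISG20 were not called by limma-voom (adjusted p from 0.0772 to 0.097). ISG20 was not called by DESeq2's Wald test or in the separate SW480 fit (adjusted p from 0.0519 to 0.0819).

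The interferon-stimulated response element, searched as GAAA, any 2 bases and GAAA again on both strands of the same RefSeq promoters, stood in 2.69% of all promoters and in 17 of 25 of the list (68%). Windows around it are shown for TNFSF10 (chr3:172523592-172523633, plus strand), for IFIT3 (chr10:89327825-89327866, minus strand) and for ISG20 (chr15:88638931-88638972, plus strand), with the match in capitals, because the first pair fell and ISG20 rose.
TNFSF10: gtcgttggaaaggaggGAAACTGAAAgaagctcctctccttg
IFIT3: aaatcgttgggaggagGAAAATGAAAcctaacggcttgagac
ISG20: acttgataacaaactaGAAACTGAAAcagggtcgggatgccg
TNFSF10 and ISG20 hold the same 10 letters in capitals, GAAACTGAAA, with opposite directions of change. The IFIT3 promoter holds another match, GAAAGTGAAA, 113 to 122 bases before the start, nearer to it than the one shown. Of genes called lower 9 of 231 held the element (3.90%), and of genes called higher 6 of 227 (2.64%).

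The immunoproteasome, the subject of the series, replaces the catalytic proteasome subunits for the production of MHC class I peptides. None of 20 immunoproteasome and MHC class I genes was called in SW480 (median -0.14), and none of 14 constitutive 20S subunits (median 0.04). The share called over all tested genes was 3.6%. The 20 genes had a median of -0.055 without caffeine replicate 2 and 0.011 without control replicate 2. The 14 subunits had a median of -0.14 without control replicate 1 and 0.23 without control replicate 2. PSMB8 measured 24.7 and 35.6 CPM in the control libraries and 23.5 and 28 CPM in the caffeine libraries, with overlapping groups, and reads of the resident gene and of the B8-mCherry fusion are counted together. PSMB9 measured 11 and 12.1 CPM in the control libraries and 13.9 and 14.9 CPM in the caffeine libraries, and PSMB10 4.84 and 5.9 CPM in the control libraries and 6.31 and 3.79 CPM in the caffeine libraries. For PSMB9 the caffeine libraries were the higher ones, by less than the test could call (0.32 ± 0.16, adjusted p = 0.272). The class I activator NLRC5 had the smallest p of the list (-0.50 ± 0.17, adjusted p = 0.115).

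A lipid carrier and a lipoprotein receptor were among the kept falls. APOE (chr19:44905754-44909393, plus strand), the apolipoprotein that carries cholesterol, measured 33.4 and 41.4 CPM in the control libraries and 10.2 and 13.6 CPM in the caffeine libraries (-1.64 ± 0.18, adjusted p = 0.000114). LRP2, or megalin, an endocytic receptor that takes up lipoproteins, measured 21.1 and 17.2 CPM in the control libraries and 7.27 and 6.68 CPM in the caffeine libraries (-1.46 ± 0.18, adjusted p = 0.0005). For both genes the highest caffeine library lay under the lowest control. Of 13 tested LXR targets and sterol efflux genes APOE was the 1 that was called (median -0.13). This list had a median of -0.19 without caffeine replicate 1 and -0.052 without control replicate 2. Among phospholipid enzymes PNPLA7, a lysophospholipase, fell (-1.05 ± 0.18) and GPCPD1, which splits glycerophosphocholine, rose from 7.32 and 8.76 CPM without caffeine to 17.1 and 17.7 CPM with it (1.11 ± 0.16). CHKA, choline kinase alpha, which starts phosphatidylcholine synthesis, was kept among the falls at 86.1 and 82.5 CPM in the control libraries and 43.9 and 45.9 CPM in the caffeine libraries (-0.91 ± 0.12, adjusted p = 0.000802). CHKA was named after its values were seen.

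FASN, fatty acid synthase, was the 1 of 12 fatty acid synthesis genes called, with 571 and 562 CPM in the control libraries and 759 and 1090.4 CPM in the caffeine libraries (0.71 ± 0.15, adjusted p = 0.0193). Against 3.6% of all tested genes, none of 25 cholesterol synthesis and uptake genes was called (median 0.11). These genes had a median of 0.00064 without control replicate 1 and 0.21 without control replicate 2. SPNS2 (chr17:4498838-4539035, plus strand) exports sphingosine 1-phosphate from cells. It measured 7.93 and 10.3 CPM in the control libraries and 23.4 and 29.6 CPM in the caffeine libraries. The log2 fold change was 1.54 ± 0.16 (edgeR adjusted p = 9.52e-05). The kinase SPHK2, which makes that lipid, rose (0.72 ± 0.14) and the phosphatase SGPP1, which removes its phosphate, fell (-0.48 ± 0.13), and the other 9 of 12 tested genes of the pathway were not called. The call of SGPP1 ended without caffeine replicate 1 or any 1 of the 4 SW620 libraries (adjusted p from 0.0588 to 0.106). With caffeine replicate 2 or control replicate 1 left out, FASN, SPHK2 and SGPP1 missed the threshold (adjusted p from 0.0522 to 0.281). SGPP1 was not called in the separate SW480 fit or when low counts were not filtered (adjusted p from 0.0557 to 0.127).

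CKB, brain-type creatine kinase, measured 42.4 and 46.8 CPM in the control libraries and 17.9 and 17.5 CPM in the caffeine libraries. Its log2 fold change was -1.33 ± 0.13 (edgeR adjusted p = 9.52e-05). QPRT, which makes an NAD precursor from quinolinate, was kept among the falls at 96.5 and 106 CPM in the control libraries and 51.1 and 51 CPM in the caffeine libraries (-0.99 ± 0.13). It was named after its values were seen and shares 572 exon bases with another gene on its strand. Neither 30 glycolysis and hypoxia-inducible genes (median 0.11) nor 36 nuclear-encoded oxidative phosphorylation genes (median 0.06) held a called member, against 3.6% of all tested genes. The 13 mitochondrially encoded mRNAs all had negative log2 fold changes, with a median of -0.75, and none was called. The medians were -0.13 in caffeine replicate 1 and -1.84 in replicate 2, the library with the low mitochondrial share. MT-ND3, with the smallest p, measured 799.7 and 842 CPM in the control libraries and 631 and 309.6 CPM in the caffeine libraries. MT-ND5 measured 1599.8 and 962 CPM in the control libraries and 1136 and 556 CPM in the caffeine libraries. For both genes caffeine replicate 2 was the lowest of the 4 libraries, and the MT-ND5 controls also lay far apart. The 13 mRNAs had a median of -1.84 without caffeine replicate 1 and -0.14 without caffeine replicate 2. The oxidative phosphorylation list had a median of -0.19 without control replicate 1 and 0.25 without control replicate 2. The glycolysis list had a median of 0.07 without control replicate 1 and 0.17 without control replicate 2.

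ADORA2B, the low-affinity A2B adenosine receptor, measured 15.6 and 18.7 CPM in the control libraries and 10.4 and 7.66 CPM in the caffeine libraries. Its caffeine libraries were under both controls (-0.94 ± 0.17, adjusted p = 0.00811), and it was the 1 called gene of 10 tested adenosine receptor and handling genes, of 18 listed. ADORA1 measured 2.06 and 2.45 CPM in the control libraries and 3.41 and 2.94 CPM in the caffeine libraries and was not called (0.48 ± 0.28, adjusted p = 0.369). ADORA2A had 4 and 1 counts in the controls and 2 and 2 with caffeine, ADORA3 had none in these libraries, and neither was tested. Of 15 tested phosphodiesterases (of 21) PDE2A, a cGMP-stimulated enzyme, rose from low levels, 0.726 and 0.992 CPM without and 2.45 and 2.34 CPM with caffeine (1.47 ± 0.36, adjusted p = 0.0344). Among the 15, 11 had a negative log2 fold change, and the median was -0.35. The phosphodiesterases had a median of -0.22 without control replicate 1. Calcium release channels and pumps (18 tested, median -0.16) and cAMP and CREB targets (22 tested, median -0.21) held no called gene, against 3.6% of all tested genes. The calcium list had a median of -0.074 without control replicate 1. The cAMP list had a median of -0.35 without control replicate 2. RYR1, a ryanodine receptor, measured 7.44 and 7.06 CPM in the control libraries and 4.51 and 4.85 CPM in the caffeine libraries (-0.63 ± 0.23, adjusted p = 0.146), and the immediate early gene FOS 404 and 415 CPM in the control libraries and 305 and 312 CPM in the caffeine libraries (-0.41 ± 0.11, adjusted p = 0.0503). CYP1A1, a target of the aryl hydrocarbon receptor and relative of the liver enzyme that clears caffeine, fell from 5.69 and 5.95 CPM without caffeine to 2.64 and 2.34 CPM with it (-1.23 ± 0.24, adjusted p = 0.0125). PDE2A depended on caffeine replicate 1 or control replicate 1 or SW620 control replicate 1 for the call (adjusted p from 0.0503 to 0.187 without it). Once caffeine replicate 2 was left out, ADORA2B, PDE2A and CYP1A1 fell short of the threshold (adjusted p from 0.156 to 0.212). PDE2A was not called by DESeq2's Wald test (adjusted p = 0.131).

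ERK output and feedback genes had a median of -0.31, with 15 of 18 negative, and the ERK pathway inhibitors SPRY2 (-0.54 ± 0.12) and DUSP5 (-0.51 ± 0.13) fell. The ERK list had a median of -0.15 without control replicate 1. The circadian clock list had a median of -0.20 and 3 of 20 genes fell, the repressors NR1D1 (-0.75 ± 0.18) and BHLHE41 (-1.02 ± 0.25) and the activator RORA (-0.64 ± 0.17). NR1D1 measured 35.7 and 29.6 CPM in the control libraries and 23.5 and 15.5 CPM in the caffeine libraries. Of 20 tested NF-kB and inflammatory genes the adhesion receptor ICAM1 fell (-0.67 ± 0.14). CCL24, an eosinophil-attracting chemokine, was kept among the rises at 8.05 and 8.29 CPM in the control libraries and 19.4 and 17.5 CPM in the caffeine libraries (1.17 ± 0.17, adjusted p = 0.00121). GIPR, the receptor of the gut hormone GIP, was kept among the falls at 12.6 and 11.2 CPM in the control libraries and 5.02 and 6.0 CPM in the caffeine libraries (-1.10 ± 0.18, adjusted p = 0.00377). BHLHE41 lost the call without caffeine replicate 1 (adjusted p = 0.0791). Dropping caffeine replicate 2 ended the call of SPRY2, DUSP5, NR1D1, BHLHE41, RORA and ICAM1 (adjusted p from 0.144 to 0.392). The call of DUSP5, NR1D1, BHLHE41, RORA and ICAM1 ended without control replicate 1 (adjusted p from 0.0889 to 0.309). With SW620 control replicate 1 or 2 left out, SPRY2, DUSP5, BHLHE41 and RORA missed the threshold (adjusted p from 0.0518 to 0.0908). RORA was not called by limma-voom (adjusted p = 0.0524). BHLHE41 was not called by DESeq2's Wald test (adjusted p = 0.0744). SPRY2 and DUSP5 were not called in the separate SW480 fit (adjusted p from 0.0631 to 0.0923).

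HES5 (chr1:2528745-2530245, minus strand), a Notch-induced repressor, measured 5.2 and 7.24 CPM in the control libraries and 17.7 and 17.8 CPM in the caffeine libraries (1.51 ± 0.20, adjusted p = 0.000802), and the caffeine libraries were nearly equal. Its relative HES1, at higher levels of 347 and 382 CPM in the control libraries and 251 and 243 CPM in the caffeine libraries, fell (-0.56 ± 0.11, adjusted p = 0.0145), and HES6 rose (0.70). Of the 29 tested Notch genes the other 26 were not called. Among activin, inhibin and BMP genes INHBB (0.55) and the BMP target ID1 (0.96) rose, and ID2 (-0.86), the inhibitor SMAD7 (-0.66) and TGFB1 (-0.43), named after its values were seen, fell, with 23 genes tested. ID1 measured 5.99 and 6.77 CPM in the control libraries and 10.6 and 14.1 CPM in the caffeine libraries and ID2 182 and 184 CPM in the control libraries and 112 and 89.5 CPM in the caffeine libraries. ASCL2, a factor of intestinal stem cells, rose as the 1 called of 23 Wnt targets and stem cell genes (0.72 ± 0.16). TGFB1 depended on caffeine replicate 1 or control replicate 2 for the call (adjusted p from 0.0604 to 0.0619 without it). Once caffeine replicate 2 was left out, HES1, HES6, INHBB, ID1, ID2, SMAD7, TGFB1 and ASCL2 fell short of the threshold (adjusted p from 0.0501 to 0.578). HES6, ID1, SMAD7, TGFB1 and ASCL2 lost the call without control replicate 1 (adjusted p from 0.0535 to 0.334). Dropping any 1 of the 4 SW620 libraries ended the call of HES6 and TGFB1 (adjusted p from 0.0689 to 0.113). HES6 was not called by limma-voom or with DESeq2 size factors or with mitochondrial genes removed (adjusted p from 0.0511 to 0.0735). TGFB1 was not called in the separate SW480 fit or when low counts were not filtered (adjusted p from 0.061 to 0.169).

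Epithelial adhesion genes had a median of -0.21, and 5 of 26 tested genes fell and none rose. The list had a median of -0.13 without caffeine replicate 2 and -0.068 without control replicate 1. They were plakoglobin, JUP (-0.61 ± 0.11), and the claudins of tight junctions CLDN1 (-0.70), CLDN7 (-0.70), CLDN3 (-0.61) and CLDN4 (-0.47), the last named after its values were seen. JUP measured 76 and 75.6 CPM in the control libraries and 48.9 and 50.7 CPM in the caffeine libraries, and CLDN4, the most abundant of these claudins, 223 and 259 CPM in the control libraries and 161 and 187 CPM in the caffeine libraries. Of 17 tested mesenchymal genes, with a median of -0.04, 1 rose and 1 fell: the matrix protein TNC was kept at 7.56 and 8.35 CPM in the control libraries and 16.6 and 15.8 CPM in the caffeine libraries (1.03 ± 0.14), and SPARC fell from 13.4 and 11.4 CPM without caffeine to 5.08 and 3.45 CPM with it (-1.57 ± 0.24). CEMIP, which depolymerises hyaluronan, was kept among the rises at 29.6 and 27.4 CPM in the control libraries and 64.7 and 63.1 CPM in the caffeine libraries (1.16 ± 0.13, adjusted p = 0.000114). CCN1, a matricellular YAP target named after its values were seen, was kept among the falls at 56.8 and 56.5 CPM in the control libraries and 29.8 and 31.6 CPM in the caffeine libraries (-0.88 ± 0.13). The call of CLDN3 and CLDN4 ended without caffeine replicate 1 (adjusted p from 0.0776 to 0.11). With caffeine replicate 2 left out, JUP, CLDN1, CLDN7, CLDN3, CLDN4 and SPARC missed the threshold (adjusted p from 0.0784 to 0.348). CLDN7 and CLDN3 depended on control replicate 1 for the call (adjusted p from 0.0665 to 0.11 without it). Once control replicate 2 or SW620 control replicate 1 or 2 was left out, CLDN1, CLDN7, CLDN3 and CLDN4 fell short of the threshold (adjusted p from 0.0516 to 0.0904). CLDN4 lost the call without SW620 caffeine replicate 1 or 2 (adjusted p from 0.0569 to 0.057). CLDN1, CLDN7 and CLDN3 were not called by limma-voom (adjusted p from 0.0511 to 0.0554). CLDN7, CLDN3 and CLDN4 were not called in the separate SW480 fit (adjusted p from 0.0539 to 0.114).

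Of 24 tested intestinal differentiation genes 3 rose and 2 fell. The membrane mucin MUC13 measured 12.1 and 8.87 CPM in the control libraries and 4.63 and 3.07 CPM in the caffeine libraries (-1.48 ± 0.20) and the adhesion molecule CEACAM1 31.1 and 22.5 CPM in the control libraries and 12.3 and 7.79 CPM in the caffeine libraries (-1.44 ± 0.20), and both fell. The alkaline phosphatases ALPP (1.23) and ALPI (1.15) and the trefoil peptide TFF3 rose. ALPP and ALPI are close paralogs whose reads may be shared, and TFF3, named after its values were seen, rested on levels of 0.121 and 0 CPM in the control libraries and 0.322 and 0.639 CPM in the caffeine libraries. The other 19 were not called, and the list's median was -0.35. The list had a median of -0.16 without control replicate 1. Of 20 tested glycosyltransferases the fucosyltransferase FUT1 rose (0.57) and the sialyltransferase ST3GAL1 fell (-0.93). Dropping caffeine replicate 2 ended the call of MUC13, CEACAM1, ALPP, ALPI, TFF3, FUT1 and ST3GAL1 (adjusted p from 0.0522 to 0.447). The call of ALPP, ALPI, TFF3, FUT1 and ST3GAL1 ended without control replicate 1 (adjusted p from 0.0522 to 0.16). With control replicate 2 left out, TFF3 missed the threshold (adjusted p = 0.14). TFF3 and FUT1 depended on SW620 control replicate 1 or 2 for the call (adjusted p from 0.0565 to 0.0675 without it). TFF3 was not called by limma-voom or by DESeq2's Wald test (adjusted p from 0.0685 to 0.0762). TFF3 and FUT1 were not called in the separate SW480 fit (adjusted p from 0.0505 to 0.0751).

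Of 2567 tested long noncoding RNAs 31 rose and 23 fell, 2.1% in all, and of 13645 protein-coding genes 4.16% were called. The long noncoding RNA IGFL2-AS1 (chr19:46189166-46203083, minus strand) measured 181 and 218 CPM in the control libraries and 57.5 and 44.7 CPM in the caffeine libraries. Its log2 fold change was -1.97 ± 0.16 (edgeR adjusted p = 1.95e-05). The pseudogene IGFL1P1 (chr19:46196238-46197323, plus strand) lies inside the IGFL2-AS1 span on the other strand, with no annotated exon bases shared. It measured 15.9 and 11.6 CPM in the control libraries and 3.93 and 3.58 CPM in the caffeine libraries (-1.88 ± 0.22). For both, the controls stood far above each caffeine library. The antisense RNA ENSG00000273174 fell too, from 8.77 and 8.41 CPM without caffeine to 2.9 and 3.41 CPM with it (-1.43 ± 0.23). Of 15 hosts of small nucleolar RNAs and related noncoding RNAs, SNHG32 (0.64) and EPB41L4A-AS1 (0.64) rose. Once caffeine replicate 2 or control replicate 1 or SW620 control replicate 1 or 2 was left out, SNHG32 and EPB41L4A-AS1 fell short of the threshold (adjusted p from 0.0677 to 0.512). SNHG32 and EPB41L4A-AS1 were not called by limma-voom (adjusted p from 0.0643 to 0.0677). EPB41L4A-AS1 was not called with DESeq2 size factors (adjusted p = 0.0557).

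The other genes with large changes in the kept set had varied roles. Among the rises, PSD2, an exchange factor for ARF GTPases, measured 4.42 and 5.72 CPM in the control libraries and 15.2 and 14.4 CPM in the caffeine libraries (1.54 ± 0.16). DBH, which makes noradrenaline, measured 15.4 and 16.2 CPM in the control libraries and 39.8 and 35 CPM in the caffeine libraries (1.24 ± 0.15). MISP, a spindle positioning protein, rose by a log2 value of 1.10 and the dehydrogenase DHRS2 by 1.08. Among the falls, EEF1A2, a translation elongation factor, measured 121 and 128 CPM in the control libraries and 49.5 and 47.6 CPM in the caffeine libraries (-1.36 ± 0.12, adjusted p = 2.41e-05). PSG1, a pregnancy-specific glycoprotein, measured 27.2 and 25.9 CPM in the control libraries and 11.6 and 8.6 CPM in the caffeine libraries (-1.41 ± 0.18). The exchange factor DOCK11 fell by 1.25 on the log2 scale, the cation channel TMEM38A by 1.22 and the synaptotagmin SYT12 by 1.18. TMC8 and its neighbour TMC6, membrane proteins mutated in epidermodysplasia verruciformis, fell together. TMC8 measured 28 and 19.8 CPM in the control libraries and 9.46 and 9.15 CPM in the caffeine libraries and TMC6, named after its values were seen, 92.4 and 94.4 CPM in the control libraries and 53.7 and 64.2 CPM in the caffeine libraries. TMC8 shares 231 exon bases on the opposite strand, and TMC6 shares 1342 with another gene on its own.

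Among the 5 most abundant called genes in each direction, the basal keratin KRT5 rose from 2696 and 2955 CPM without caffeine to 4532 and 4627 CPM with it (0.70 ± 0.14, adjusted p = 0.0122). ODC1, which starts polyamine synthesis, measured 339.8 and 435 CPM in the control libraries and 539 and 667 CPM in the caffeine libraries (0.64 ± 0.14). NSMF, a synapse-to-nucleus messenger, was kept among the falls at 1215 and 1033 CPM in the control libraries and 625 and 673 CPM in the caffeine libraries (-0.79 ± 0.12, adjusted p = 0.00247). EPAS1, the hypoxia-inducible factor HIF-2α, measured 967 and 789 CPM in the control libraries and 589 and 523 CPM in the caffeine libraries (-0.66 ± 0.13), and the focal adhesion adaptor LIMS1 627 and 532 CPM in the control libraries and 410.5 and 328 CPM in the caffeine libraries (-0.65 ± 0.13). The inositol transporter SLC5A3 (-0.85) and the mitochondrial ribosomal protein MRPS6 (-0.97) fell. Their annotated exons overlap on 1 strand, so their levels may not be independent. Reads ambiguous between genes were left unassigned, 7.85% to 8.37% in the SW480 libraries. KRT5, ODC1, EPAS1, LIMS1, SLC5A3 and MRPS6 lost the call without caffeine replicate 2 (adjusted p from 0.0945 to 0.255). Dropping control replicate 1 ended the call of ODC1, EPAS1 and LIMS1 (adjusted p from 0.0652 to 0.119).

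**Figure D4:**
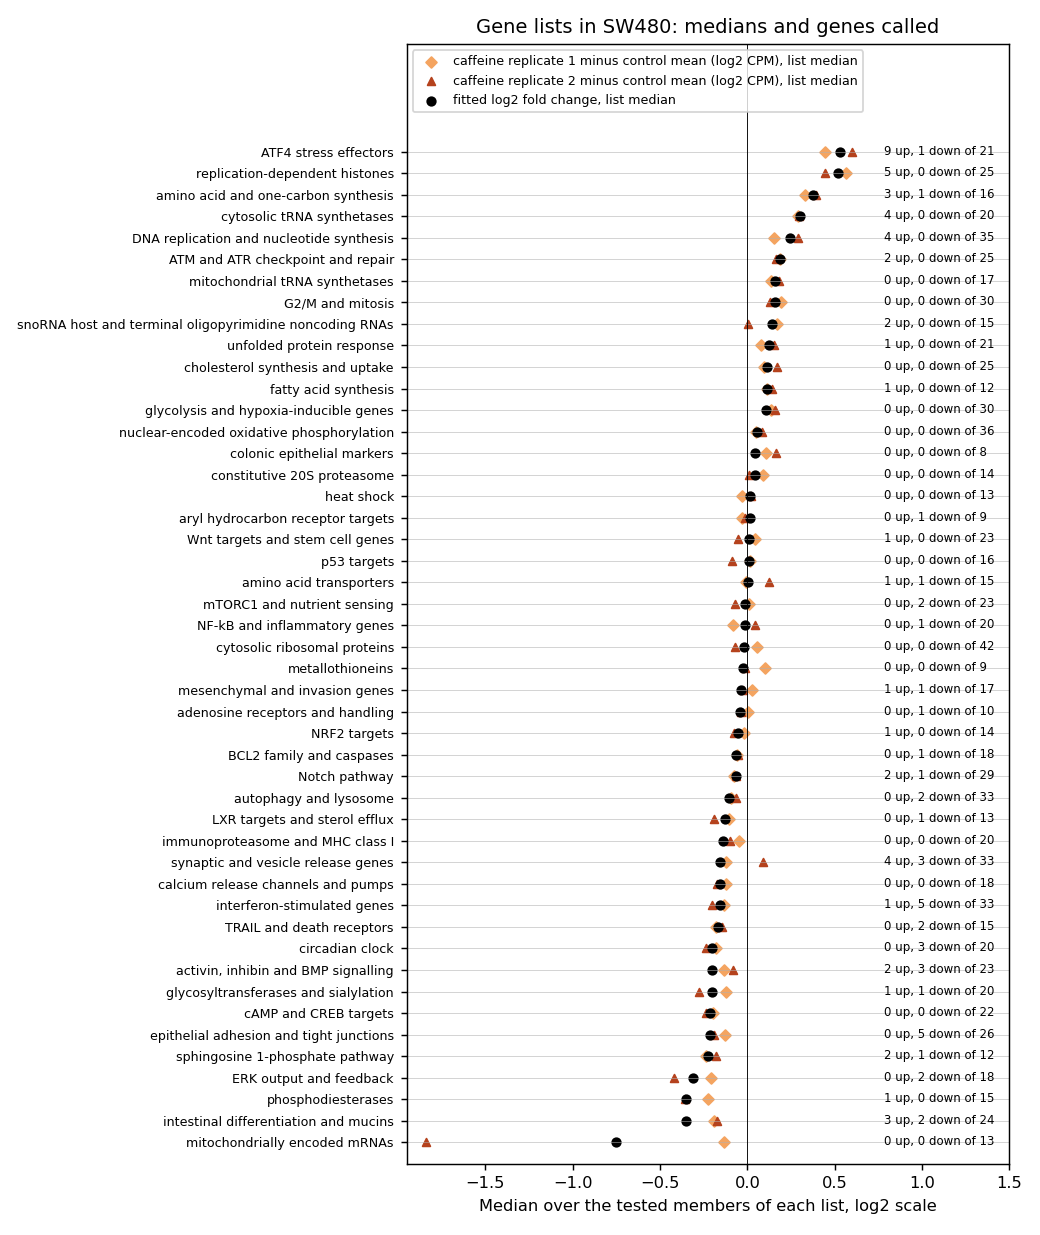
Median log2 value of each of the 47 gene lists with at least 8 tested members, for the fitted fold change (black) and for each caffeine library minus the control mean (orange and red), with the number of called members at the right. ATF4 stress effectors (0.53) and histones (0.52) have the highest medians and mitochondrially encoded mRNAs the lowest, -0.75, where the caffeine libraries lie far apart at -0.13 and -1.84.

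At very low counts, KRT16 had 0 counts in the controls and 15 with caffeine, and RNU4ATAC18P had 12 and 0. Set against a floor of 3 counts over the empty group, KRT16 was 4.35-fold higher and RNU4ATAC18P 4.60-fold lower. SEMA5B measured 0.726 and 0.876 CPM in the control libraries and 3.99 and 3.92 CPM in the caffeine libraries, C9orf24 0.0605 and 0.175 CPM in the control libraries and 0.772 and 0.724 CPM in the caffeine libraries and TMIE 2.06 and 2.63 CPM in the control libraries and 1.09 and 0.383 CPM in the caffeine libraries. The folds of KRT16 and RNU4ATAC18P allow for counting error in the empty group and not in the other, so they are not lower limits. The call of KRT16, RNU4ATAC18P and C9orf24 ended without caffeine replicate 1 (adjusted p from 0.0621 to 0.0935). With caffeine replicate 2 left out, KRT16, RNU4ATAC18P, SEMA5B, C9orf24 and TMIE missed the threshold (adjusted p from 0.0521 to 0.457). KRT16, RNU4ATAC18P, C9orf24 and TMIE depended on control replicate 1 or SW620 control replicate 1 or 2 for the call (adjusted p from 0.0516 to 0.242 without it). Once control replicate 2 was left out, KRT16, RNU4ATAC18P and TMIE fell short of the threshold (adjusted p from 0.0732 to 0.0865). C9orf24 lost the call without SW620 caffeine replicate 1 (adjusted p = 0.0564). Dropping SW620 caffeine replicate 2 ended the call of KRT16 and C9orf24 (adjusted p from 0.0514 to 0.0557). DESeq2's Wald test gave no adjusted p for KRT16, RNU4ATAC18P, C9orf24 and TMIE.

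The response was set against that of SW620, to show where SW480 differs. In SW620 14.4% of the 17671 tested genes were called in either direction, 1432 of them higher and 1105 lower. Of the 636 SW480 calls, 102 (16%) were called in the same direction in SW620 and 64 in the opposite direction. The 102 are 4.02% of the 2537 calls there. The 16% counts the same direction only and is not comparable with the 14.4%, which counts either direction. Of the 295 genes called higher in SW480, 43 were called higher and 24 lower in SW620. Of the 341 called lower, 59 were called lower and 40 higher. The difference of the responses, SW620 minus SW480, was called for 232 of the 636, against 6.71% of all tested genes. Since the 636 were chosen on their SW480 response, which enters that difference, the share is a description. Labels do not state that caffeine dose and exposure time were the same in both lines, so a difference between lines may include these. Of the 47 kept genes, 16 were called in the same direction in SW620, 8 in the opposite one and 23 not at all, and the responses differed for 27. The 23 include PSG1, LRP2 and HES5, which had no usable SE in SW620. For these, no call does not show that the gene did not respond there.

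CPLX2 fell in SW620 (-0.88 ± 0.16, adjusted p = 0.00138), where it rose in SW480, a difference of -2.63 ± 0.22 (adjusted p = 4.15e-06). The ATF4 effectors CHAC1 (-0.78 ± 0.14 in SW620, difference -2.16 ± 0.22) and INHBE (-0.57 ± 0.13, difference -2.20 ± 0.22) fell there too. Of the 21 ATF4 stress effectors, 2 rose and 8 fell in SW620, and the responses differed for 12. TMC8 rose in SW620 (1.40 ± 0.15, difference 2.77 ± 0.23), and so did GIPR (1.17 ± 0.17, difference 2.27 ± 0.25). TNFSF10 had a log2 fold change of 0.27 ± 0.17 in SW620 (adjusted p = 0.32), and its response differed (2.37 ± 0.29, adjusted p = 0.000127). Shared falls were those of APOE (-1.63 ± 0.21 in SW620) and DOCK11 (-1.19 ± 0.20), and shared rises those of H2BC12 (1.81 ± 0.13), TNC (1.10 ± 0.11) and CCL24 (1.26 ± 0.23). For APOE, DOCK11, TNC and CCL24 the difference between the lines was not called, with adjusted p from 0.861 to 1, and for H2BC12 it was 0.0519. The glycolysis and hypoxia-inducible list, with no call of 30 in SW480, had 27 rises in SW620, and the responses differed for 19 of the 30.

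**Figure D5:**
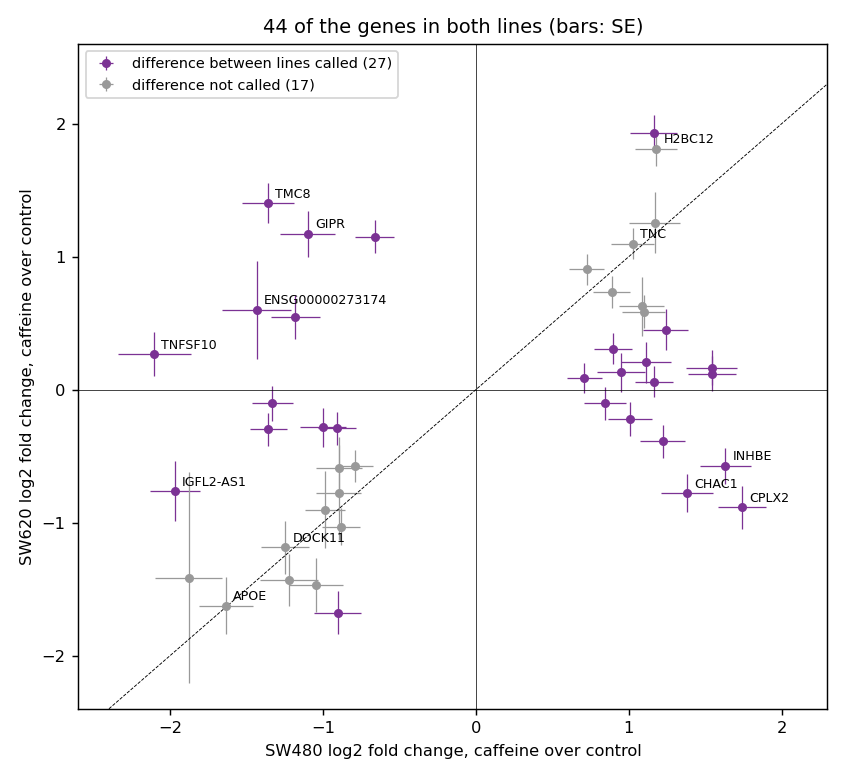
Log2 fold change with SE in SW480 (horizontal) and SW620 (vertical) for 44 of the 47 kept genes. Left out are the 3 with no usable SE in SW620, PSG1, LRP2 and HES5. Purple marks the 27 genes whose response differed between the lines, CPLX2, INHBE and CHAC1 at lower right and TMC8 and GIPR at upper left, and genes near the dashed line of equal change include APOE and TNC.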

How the data were processed

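Poly-A RNA of 8 libraries, 2 per line and treatment, was sequenced with 75 bp single-end reads from a directional kit, per the labels' protocols. The authors deposited raw counts per Ensembl gene for each library. Trim Galore, STAR 2.7.3a, featureCounts 2.0.5 and hg38 are named in the submitters' processing notes, with no strand setting or annotation release stated. The 12 assignment rows of a file were left out, which leaves 62649 genes. Coordinates and overlaps came from GENCODE 29 for 58225 of the IDs, and of 148 genes under the naming rule 56 shared exon bases with another gene, 17 on the same strand.

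All 8 libraries entered 1 fit with 4 group means in edgeR 4.0.16 (R 4.3.3, TMM, filterByExpr, robust quasi-likelihood test, Benjamini-Hochberg over 17671 genes, threshold 0.05). The groups share 1 estimate of the spread, a biological coefficient of variation of 10.5%. It was 13.1% in SW480 alone and 7.01% in SW620 alone, so SW480 p-values rest in part on the smaller spread of SW620. The alternatives were DESeq2 1.42.0 (size factors, Wald test), limma-voom (limma 3.58.1), no filter and a replicate block. A separate SW480 fit, no mitochondrial genes and each library left out were further alternatives. Same-numbered deviations had a correlation of 0.0265, and the labels tie the numbers to no shared batch.

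The naming rule took the 15 largest kept changes per direction with at least 2 CPM in a group, the 5 most abundant calls per direction, up to 4 called members of each of 50 lists (or the 2 with the smallest p), the 3 largest line differences per direction, and the immunosubunits and adenosine receptors. The comparison, lists and rule were chosen with earlier results of these data known. Some genes under the rule are not reported here. Counting intervals and floors cover counting error only.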

Additional observations from a re-analysis of the deposited data

Results flagged for a closer look

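For 57 named genes called in SW480 the caffeine response differed between the lines in edgeR's test of the difference (adjusted p under 0.05), given here as the log2 fold change in SW620 minus that in SW480. No group of this study is large enough for a search for single outlying libraries. The SW480 response was part of the choice of these genes, so their number is a description. Whether caffeine dose and exposure time were the same in both lines is not stated.

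Of the genes that rose in SW480, 11 fell in SW620: CPLX2 (-2.63), INHBE (-2.20), CHAC1 (-2.16), ASCL2 (-1.75), HES6 (-1.69), ADM2 (-1.61), GINS2 (-1.28), EPB41L4A-AS1 (-1.23), ODC1 (-1.06), FUT1 (-1.06) and PSAT1 (-1.003). Among them are 3 secreted or enzymatic effectors of the amino acid response (INHBE, CHAC1 and ADM2), the serine synthesis enzyme PSAT1 and the polyamine enzyme ODC1. A further 18 that rose in SW480 were not called in SW620: PDE2A (-3.48), TXNDC5 (-1.63), SPNS2 (-1.42), PSD2 (-1.38), SLC7A11 (-1.23), CEMIP (-1.10), SPHK2 (-1.09), KRT5 (-1.09), SNHG32 (-1.09), FASN (-0.97), GPCPD1 (-0.91), GPT2 (-0.89), INHBB (-0.81), DBH (-0.79), TYMS (-0.71), H2AX (-0.70), MARS1 (-0.68) and DDIT4 (-0.59). The histone genes H2AC6 (0.77), H1-2 (1.42) and H2BC11 (2.29) rose in both lines, by more in SW620.

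Of the genes that fell in SW480, 7 rose in SW620: JUP (1.44), SYT12 (1.73), RORA (1.91), DUSP5 (2.18), GIPR (2.27), BHLHE41 (2.29) and TMC8 (2.77). Another 16 were not called there: LIMS1 (0.77), SPRY2 (0.81), CLDN1 (0.95), NR1D1 (0.95), MRPS6 (1.04), CEACAM1 (1.05), EEF1A2 (1.06), SLC5A3 (1.13), TNFRSF10D (1.22), CKB (1.23), ADORA2B (1.37), SHANK1 (1.47), EPAS1 (1.47), ST3GAL1 (1.84), ENSG00000273174 (2.03) and TNFSF10 (2.37). MUC13 (0.88) and IGFL2-AS1 (1.21) fell in both lines, by less in SW620.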

How the results depend on the processing

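The 636 SW480 calls became 1073 with no filter on low counts (583 higher and 490 lower) and 1041 in a separate SW480 fit with the replicate block (506 and 535). Other settings that kept all 8 libraries, or the 4 of SW480, gave 516 (limma-voom) to 699 (separate fit). DESeq2 size factors gave 265 higher and 390 lower, and their median over all tested genes was -0.02. The replicate block over all libraries gave 590 SW480 calls (279 and 311) and 1087 line differences, against 1185 without it, ended the call of 8 named genes, GARS1 and CARS1 among them, and gave it to 2 others. With 1 library left out, the calls ran from 50 to 1367, with 25 to 666 higher, 25 to 701 lower and 38 to 323 above 1 in log2 size, against 209 with all libraries. The line differences ran from 421 to 2156. Without SW620 control replicate 1 or 2 there were 370 and 381 SW480 calls. The cause of these shifts was not tested, apart from the loss of replicates that leaving out a library brings. The library left alone in its group is assumed to vary like the others.

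Of the 148 genes under the naming rule, 5 that were not called changed sign. Over the fits with 1 library left out PSMA7 ran from -0.014 to 0.43, COL1A1 from -0.062 to 0.52, LYZ from -1.49 to 0.011, PSMB8 from -0.46 to 0.049 and PSMB10 from -0.50 to 0.23. The signs turned without control replicate 1 (PSMA7), caffeine replicate 2 (COL1A1 and PSMB10) or control replicate 2 (LYZ, PSMB8 and PSMB10) of SW480. Counts of 0 to 3, as in KRT16 or RNU4ATAC18P, leave the size of a change open.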

Other observations

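The kept genes not described so far, chosen here after their values were seen, add further single changes. DPYSL3, a cytoskeletal regulator of growth cones, measured 63.8 and 65.1 CPM in the control libraries and 118 and 121 CPM in the caffeine libraries (log2 fold change 0.89 ± 0.12, edgeR adjusted p = 0.000786). MYT1, a zinc finger factor of neural cells, measured 12 and 12.1 CPM in the control libraries and 21.4 and 22 CPM in the caffeine libraries (0.85 ± 0.14, adjusted p = 0.00339). GDAP1, a protein of the mitochondrial outer membrane, rose by a log2 value of 0.95, and C1orf116 by 0.72. FHL1, a LIM domain protein, fell from 25 and 24.5 CPM without caffeine to 12.4 and 12.4 CPM with it (-0.998 ± 0.15, adjusted p = 0.00201). The fibrillar collagen COL27A1 (-0.90), the Notch clock gene HES7 (-0.90) and the interleukin 15 receptor subunit IL15RA (-0.89) fell as well. As for all 636 called genes and for 43% of all tested genes, the control and caffeine libraries of these genes did not overlap. In SW620, DPYSL3 (0.74 ± 0.12) and C1orf116 (0.90 ± 0.12) also rose and COL27A1 (-1.68 ± 0.16) also fell, while MYT1 was not called (-0.10 ± 0.12, adjusted p = 0.628).

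Several lists held no call in SW480: 42 cytosolic ribosomal protein genes (median -0.02), 13 heat shock genes (0.02) and 9 metallothioneins (-0.02), against 0.00 over all tested genes. The ribosomal list had a median of -0.21 without control replicate 1 and 0.20 without control replicate 2. The heat shock list had a median of -0.099 without control replicate 1 and 0.15 without control replicate 2. The metallothioneins had a median of 0.083 without control replicate 2. The cAMP response element, searched as TGACGTCA on both strands (a palindrome), stood in 3.15% of all promoters, in 5 of 227 of genes called higher (2.20%) and in 7 of 231 of genes called lower (3.03%).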
